A study of Mus musculus with 19 samples.

Results

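The 9 genes described here are transcription factors that mark projection neurons of the cerebral cortex, namely *Tbr1*, *Fezf2*, *Bcl11b*, *Tle4*, *Foxp2*, *Neurod1*, *Neurod2*, *Neurod6* and *Cux1*. They were taken by symbol from a list of layer and identity factors that was drawn up with earlier results of these data known, and are 9 of the 51912 genes in the count tables. *Tbr1*, *Fezf2*, *Bcl11b*, *Tle4* and *Foxp2* mark deep-layer neurons, *Neurod1*, *Neurod2* and *Neurod6* belong to the neuronal basic helix-loop-helix (bHLH) family, and *Cux1* marks upper-layer neurons.

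Projection neurons are the excitatory neurons of cortex that send axons to other cortical areas or out of the cortex. They descend from neural progenitors (NPCs) of the ventricular and subventricular zones, deep layers before upper layers, and each class is specified by transcription factors that repress one another's programs. At embryonic day 13.5 (E13.5) deep-layer neurons are being born in mouse cortex, and most upper-layer neurons are not yet made.

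The study asked how loss of *Ino80*, which encodes the ATPase of a chromatin remodeling complex, alters gene expression in this tissue, and which changes persist when *Trp53*, the gene for p53, is lost as well. RNA of dissected cerebral cortex was sequenced as 1 library per embryo. There were 7 control embryos (ctrl), whose alleles the sources used here do not give, 5 embryos of the *Emx1*-Cre *Ino80* conditional mutant (cKO-E), and 7 embryos that lacked *Trp53* also (dKO-E, *Emx1*-Cre *Ino80*/*Trp53* conditional double mutant). All were E13.5 embryos of mixed C57BL/6 and 129 background. *Emx1*-Cre acts in cortical progenitors and their descendants, so interneurons, microglia, vessels and other cells of different origin keep both genes, and their RNA is in the same libraries. The ctrl embryos came from 4 litters, the cKO-E embryos from 5 and the dKO-E embryos from 2, and no litter held both mutants. There were 4 females and 3 males in ctrl, 4 females and 1 male in cKO-E, and 2 females and 5 males in dKO-E. Batches 1 and 2 held 4 and 3 ctrl embryos and 3 and 2 cKO-E embryos. Of the dKO-E embryos 4 were in batch 1, 2 in batch 2 and 1 in batch 3.

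Libraries held 820915 to 8095810 reads counted on genes, and the median was 3152460 in ctrl, 2952788 in cKO-E and 2598028 in dKO-E. Levels are given in CPM, a gene's counts per 1000000 counts of its library, and differences as log2 fold changes with their standard error (SE). A gene was called at an adjusted p below 0.05 in edgeR's quasi-likelihood test over all genes tested, 11660 for cKO-E against ctrl, 11381 for dKO-E against ctrl and 11746 for dKO-E against cKO-E. The 3 libraries of litter 7, ctrl H, ctrl I and cKO-E E, stood apart in the share of reads outside annotated exons, 9.73% to 12.5% against 4.96% to 8.41% in the others, and results without them are given where a call changed. Whole-gene counts of *Ino80* were higher in cKO-E (log2 fold change 0.48, SE 0.07) and in dKO-E (0.62, SE 0.06) than in ctrl. The conditional allele removes only some of the exons, so these counts do not check the deletion. *Trp53* was 0.36 lower on the log2 scale in dKO-E than in ctrl (SE 0.10, adjusted p = 0.0196 in edgeR's quasi-likelihood test), and 0.17 lower in cKO-E (SE 0.10, adjusted p = 0.300). Between the mutants it was 0.18 lower in dKO-E (SE 0.11, adjusted p = 0.322) with groups that overlapped, so *Trp53* counts do not tell the mutants apart.

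*Neurod1*, a bHLH factor of newborn neurons (chr2:79452521-79456751 on GRCm38, minus strand), was listed at 0 in all 19 libraries. It was therefore not tested, and the counts below refer to the other 8 members. Counting error alone would allow 3 counts, or 0.370 to 3.73 CPM depending on the library. In GENCODE M21 the gene shares 201 bases of exon with *Cerkl* on the same strand, and 154 bases with the noncoding *Gm26755* on the opposite strand. *Cerkl* was listed with 481 counts and *Gm26755* with 36 over all libraries. *Sox2*, a defining gene of neural progenitors, *Tubb3*, a tubulin of all neurons, and *Pou3f3*, an upper-layer factor, were also listed at 0 in every library, so the 0 of *Neurod1* is not read as absence. A part of shared exons in these zeros was not tested.

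The other 8 members were measured in every library, from 37 counts of *Fezf2* in the shallowest library to 5140 of *Bcl11b* in the deepest dKO-E library. Levels were divided by the length of all annotated exons of a gene to compare genes. That length was 20024 bases for *Cux1* and 2150 for *Neurod6*, and it can exceed the length of any 1 transcript. The order depends on it, since without it *Cux1* had the highest mean in ctrl, 703.6 CPM. In ctrl, *Bcl11b* was highest, at 82.2 ± 15.5 CPM per kilobase of exon (SD, n = 7), above *Neurod6* in 7 of 7 libraries although their ranges overlapped. *Neurod6* followed at 70.9 ± 14.1, *Tle4* at 47.6 ± 5.59 and *Neurod2* at 41.3 ± 9.74. *Cux1* at 35.1 ± 2.96, *Foxp2* at 34.4 ± 3.21 and *Tbr1* at 33.8 ± 7.80 lay within one another's ranges. *Fezf2* was lowest at 17.2 ± 3.13 CPM per kilobase, and it was the one member whose range did not reach that of its neighbour. In cKO-E the order at the bottom changed: *Cux1* (23.4 ± 1.58, n = 5) and *Foxp2* (22.9 ± 3.10) lay below the whole range of *Tbr1* (39.2 ± 4.59), which was at 34.0 or more CPM per kilobase in each of these 5 libraries. In dKO-E, *Foxp2* (31.8 ± 2.39, n = 7), *Tbr1* (27.9 ± 3.58) and *Cux1* (27.6 ± 1.69) overlapped as in ctrl.

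**Figure D1:**
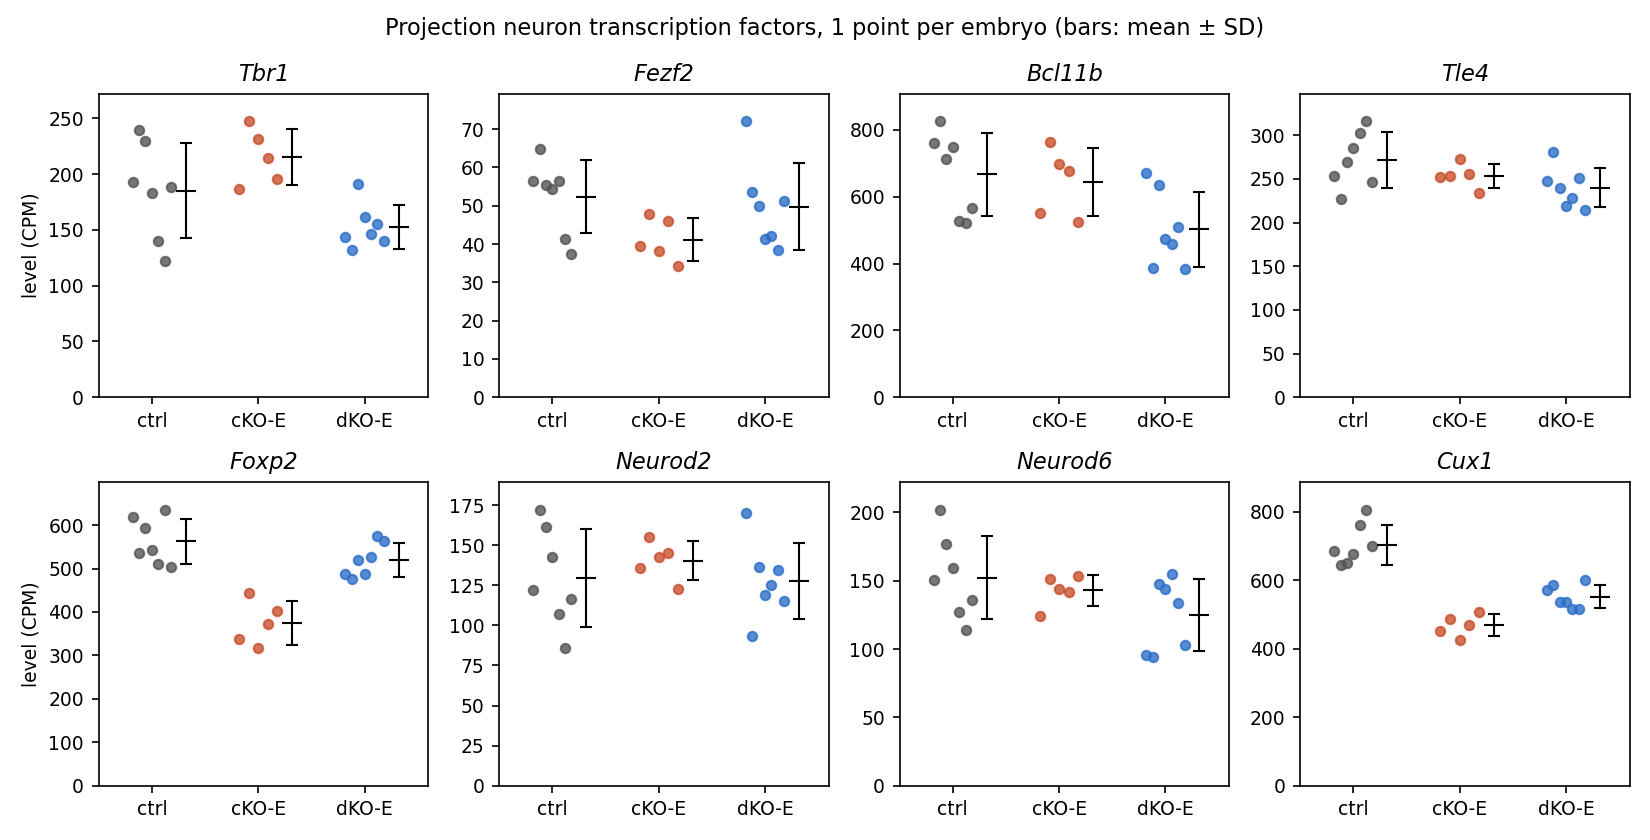
Level of each of the 8 measured transcription factors in CPM (vertical axis, from 0) by genotype, with 1 point per embryo and the group mean ± SD as the bar beside it (n = 7 ctrl, 5 cKO-E and 7 dKO-E). The *Cux1* points of both mutants, and the *Foxp2* points of cKO-E, lay below every ctrl point, while the other panels overlapped.

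Against ctrl, 3 of the 8 tested members fell in cKO-E, *Cux1*, *Foxp2* and *Fezf2*, where 9.88% of all genes tested fell. None was called higher by edgeR or by DESeq2, where 7.31% of all genes rose. At an unadjusted p under 0.05, 0 members were higher and the same 3 lower, where 14.3% of all genes were higher and 15.5% lower. In 2 members, *Cux1* and *Foxp2*, every cKO-E library was below every ctrl library, where 8.77% of all genes had groups that did not overlap in either direction. The same 2 were called at the stricter false discovery rate of 0.001, which 3.38% of all genes passed. The median log2 fold change of the 8 members was -0.10, beside 0.02 over all genes tested. In bulk tissue fewer cells of a type and less RNA per cell cannot be told apart.

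Against ctrl, 2 of the 8 members fell in dKO-E, *Cux1* and *Bcl11b*, where 10% of all genes tested fell. None was called higher by edgeR or by DESeq2, where 5.45% of all genes rose. At an unadjusted p under 0.05, 0 members were higher and 5 lower, where 13.1% of all genes were higher and 16.5% lower. All 8 estimates were below 0, with a median of -0.23 beside 0.01 over all genes. When libraries were scaled to the summed level of pan-neuronal genes instead, neither call was kept and *Fezf2*, *Tle4*, *Foxp2* and *Neurod2* had estimates above 0, while the median of all genes moved to 0.28. Only *Cux1* had groups that did not overlap (4.44% of all genes), and only *Cux1* passed the rate of 0.001 (2.58% of all genes).

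Between the mutants, *Foxp2* and *Cux1* were higher in dKO-E than cKO-E, where 5.59% of all genes were higher, and *Tbr1* was lower, where 9.42% were lower. At an unadjusted p under 0.05, 2 members were higher and 2 lower, *Tbr1* and *Bcl11b*, where 12.7% of all genes were higher and 14.8% lower. In *Foxp2* and *Cux1* every dKO-E library was above every cKO-E library, against 7.09% of all genes with groups apart in either direction. *Foxp2* alone passed the rate of 0.001, which 3.13% of all genes passed. The 2 comparisons with ctrl share the ctrl libraries, so their values for a gene are set side by side below, and the difference between mutants is taken from the direct comparison.

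Scaling to total counts changed the balance of calls over all genes. With the main scaling by trimmed means 852 genes rose and 1152 fell in cKO-E, 620 rose and 1139 fell in dKO-E, and 657 genes exceeded cKO-E and 1106 fell short of it in the dKO-E libraries. With total counts these were 1068 and 910, 1783 and 694, and 1064 and 942. With pan-neuronal genes as the scale they were 321 and 1179, 3472 and 147, and 7332 and 373.

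**Figure D2:**
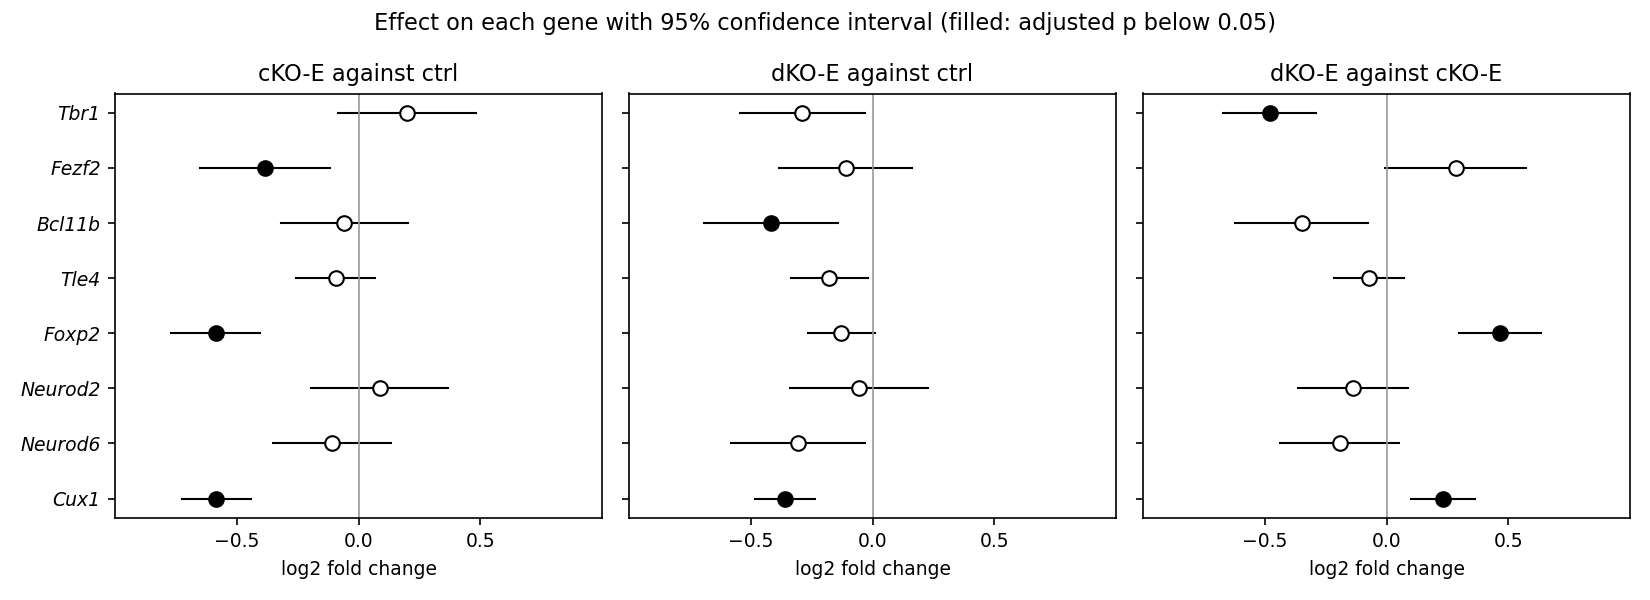
Log2 fold change (horizontal axis) of each of the 8 measured transcription factors in 3 comparisons, with the 95% confidence interval as a line; filled circles passed an adjusted p of 0.05 in edgeR's quasi-likelihood test. *Cux1* was the only gene called in all 3 panels, below 0 in both mutants and above 0 for dKO-E against cKO-E.

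*Cux1* (chr5:136248135-136567490, minus strand) encodes a homeodomain factor of upper-layer neurons that is also expressed in progenitors of the subventricular zone. Its level in ctrl ran from 644 to 806 CPM with a median of 685. In cKO-E it was 452.9, 487, 426, 469.6 and 508 CPM. In dKO-E it ran from 515 to 600.4 CPM with a median of 538. The 3 groups did not overlap, with cKO-E lowest, dKO-E between and ctrl highest. In cKO-E *Cux1* fell by 0.58 on the log2 scale (SE 0.07, 95% interval -0.73 to -0.44, adjusted p = 1.85e-05 in edgeR's quasi-likelihood test), and in dKO-E it fell by 0.36 (SE 0.06, interval -0.48 to -0.24, adjusted p = 0.000337). It was 0.23 higher in dKO-E than cKO-E (SE 0.06, interval 0.10 to 0.36, adjusted p = 0.0169).

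The lower *Cux1* level in cKO-E was also seen within litters. In litter 4 the cKO-E embryo had 487 CPM and its ctrl sibling 651. In litter 5 the cKO-E embryo had 426 CPM and its ctrl siblings 678 and 760.1, and in litter 7 it had 508 CPM against 806 and 700.2. For dKO-E only litter 1 held ctrl siblings, at 685 and 644 CPM, and its 3 dKO-E embryos had 571, 585 and 537 CPM. With litter as a block the estimate was -0.60 in cKO-E (adjusted p = 0.000529 in edgeR's quasi-likelihood test) and -0.25 in dKO-E (adjusted p = 0.132). Batch 1 alone gave -0.56 for cKO-E and -0.27 for dKO-E, and batch 2 alone gave -0.62 and -0.45. *Cux1* shares 394 bases of exon with an antisense gene, *Gm16599*, which had 423 counts over all libraries, and whether the counting used strand is not given in the sources used here. The difference between mutants was less firm: it was 0.20 (adjusted p = 0.0663) without cKO-E C, 0.29 (adjusted p = 0.0494) within batch 1, and 0.17 within batch 2, where it was not called.

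*Foxp2* (chr6:14901349-15441977, plus strand) encodes a forkhead factor of layer 6 neurons known for its part in speech and vocal learning. Its level in ctrl ran from 504 to 636 CPM with a median of 542. In cKO-E it was 337, 443, 316, 373 and 403 CPM, all below the lowest ctrl embryo. In dKO-E it ran from 475 to 576 CPM with a median of 520.4, above every cKO-E embryo and overlapping ctrl. *Foxp2* fell by 0.59 in cKO-E (SE 0.09, 95% interval -0.77 to -0.40, adjusted p = 0.000177 in edgeR's quasi-likelihood test). In dKO-E its estimate against ctrl was -0.13 (SE 0.07, interval -0.26 to 0.01, adjusted p = 0.199), which does not exclude a small decrease. It was 0.47 higher in dKO-E than cKO-E (SE 0.08, interval 0.30 to 0.64, adjusted p = 0.000561).

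Within litters *Foxp2* was again lower in cKO-E. The cKO-E embryo and its ctrl sibling had 443 and 592 CPM in litter 4. In litter 5 the cKO-E embryo had 316 CPM against 542 and 511, and in litter 7 it had 403 CPM against 636 and 504. Within batch 1 its estimate in cKO-E was -0.66 (adjusted p = 0.000748), and within batch 2 it was -0.50 (adjusted p = 0.0238). The difference between mutants was 0.43 (adjusted p = 0.0311) within batch 1 and 0.54 (adjusted p = 0.00382) within batch 2, all by edgeR's quasi-likelihood test.

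*Fezf2* (chr14:12342094-12348189, minus strand) encodes the zinc finger factor that specifies subcerebral projection neurons of layer 5. It was the least abundant member, at 37.5 to 64.9 CPM with a median of 55.3 in ctrl. In cKO-E it was 39.5, 47.9, 38.2, 46.0 and 34.3 CPM, overlapping the lowest ctrl embryos H and I of litter 7. In dKO-E it ran from 38.4 to 72.1 CPM with a mean of 49.8. *Fezf2* fell by 0.39 in cKO-E (SE 0.13, 95% interval -0.65 to -0.12, adjusted p = 0.0444 in edgeR's quasi-likelihood test). The call sat at the threshold: it was lost without any 1 of ctrl A, B, C, D or F or of cKO-E A, C, D or E, with estimates of -0.41 to -0.32 and adjusted p from 0.0541 to 0.111. Batch 1 alone gave -0.47 (adjusted p = 0.00839) and batch 2 alone -0.24 (adjusted p = 0.602), and with litter as a block the call was lost (-0.32, adjusted p = 0.0675). Against ctrl the dKO-E estimate was -0.11 (interval -0.38 to 0.16, adjusted p = 0.627), and against cKO-E it was 0.28 (interval -0.01 to 0.57, adjusted p = 0.190).

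*Tbr1* (chr2:61802930-61814114, plus strand) encodes a T-box factor that layer 6 and other early-born neurons express soon after they leave the cell cycle. Its level ran from 122 to 239.6 CPM in ctrl with a median of 188. In cKO-E it was 186, 248, 231, 215 and 195 CPM, and in dKO-E it ran from 132 to 191 CPM with a median of 146. In dKO-E 6 of 7 libraries lay under the whole cKO-E range, and both groups overlapped ctrl. *Tbr1* was 0.48 lower in dKO-E than cKO-E (SE 0.09, 95% interval -0.67 to -0.29, adjusted p = 0.00131 in edgeR's quasi-likelihood test). Neither mutant passed the test against ctrl, with estimates of 0.20 in cKO-E (interval -0.08 to 0.48, adjusted p = 0.346) and -0.29 in dKO-E (interval -0.55 to -0.03, adjusted p = 0.123). Without ctrl H, which had the lowest *Tbr1* level of all embryos, the dKO-E estimate was -0.36 (adjusted p = 0.0249), and without the litter 7 embryos it was -0.38 (adjusted p = 0.0273). With sex as a covariate it was -0.35 (adjusted p = 0.0447), in batch 1 alone -0.44 (adjusted p = 0.0280) and in batch 2 alone -0.0029 (adjusted p = 0.997). Within batches the difference between mutants was -0.49 (adjusted p = 0.0336) in batch 1 and -0.45 (adjusted p = 0.0509) in batch 2.

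*Bcl11b* (chr12:107910403-108003602, minus strand), also called Ctip2, encodes a zinc finger factor needed by corticospinal neurons, and it is expressed in striatal neurons as well. Its level ran from 520.1 to 827 CPM in ctrl with a median of 713, and in cKO-E it was 550.2, 764, 697, 678 and 525 CPM. In dKO-E it ran from 385 to 673 CPM with a median of 472, and 5 of the 7 lay under the whole ctrl range. *Bcl11b* fell by 0.42 in dKO-E (SE 0.13, 95% interval -0.69 to -0.14, adjusted p = 0.0370 in edgeR's quasi-likelihood test). This call was lost without any 1 of ctrl A, B, C or D or of dKO-E B, D, E, F or G, with estimates of -0.41 to -0.35 and adjusted p from 0.0633 to 0.0792. Batch 1 alone gave -0.51 (adjusted p = 0.0300) and batch 2 alone -0.26 (adjusted p = 0.242), and with litter as a block the call was lost (-0.51, adjusted p = 0.113). In cKO-E its estimate was -0.06 (interval -0.32 to 0.20, adjusted p = 0.815). The direct difference between mutants was -0.35 (interval -0.62 to -0.07, adjusted p = 0.0830), and it passed the test without cKO-E E, the one litter 7 embryo in this comparison (-0.42, adjusted p = 0.0430), without dKO-E A (-0.43, adjusted p = 0.0221) or without dKO-E C (-0.42, adjusted p = 0.0343). Of the 12 striatal lineage markers listed, whose summed level was 2508 to 2815 CPM in ctrl, 1811 to 2247 in cKO-E and 1982 to 2608 in dKO-E, *Isl1* and *Six3* had 4 counts each over all libraries. Most of that sum was *Meis2*, a homeobox gene also expressed in cortex, at 2569 ± 129 CPM in ctrl (SD, n = 7), which fell by 0.41 (SE 0.06) in cKO-E and by 0.27 (SE 0.07) in dKO-E. *Ebf1*, a factor of striatal projection neurons, went the other way in cKO-E, where it rose by 1.04 (SE 0.10, adjusted p = 3.86e-06 in edgeR's quasi-likelihood test) from 62.7 to 127 CPM with groups apart, and in dKO-E it had 0.27 (SE 0.15, adjusted p = 0.262). The other tested genes of the list, *Ikzf1* and *Sp9*, were not called. The part of striatal tissue in the *Bcl11b* level was not tested.

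*Tle4* (chr19:14448150-14598051, minus strand) encodes a Groucho-family corepressor of corticothalamic neurons. Its mean was 271 ± 31.9 CPM in ctrl (SD, n = 7), 254 ± 13.8 in cKO-E (n = 5) and 240.1 ± 22.6 in dKO-E (n = 7). Its groups overlapped in all 3 comparisons and it passed none of the tests. The intervals were -0.26 to 0.07 for cKO-E against ctrl, -0.33 to -0.02 for dKO-E against ctrl and -0.22 to 0.07 for dKO-E against cKO-E, and the adjusted p in dKO-E against ctrl was 0.121 in edgeR's quasi-likelihood test. Intervals are not adjusted for the number of genes, so one can lie below 0 where the test did not pass.

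*Neurod2* (chr11:98325415-98329648, minus strand) and *Neurod6* (chr6:55677822-55681263, minus strand) encode bHLH activators that postmitotic excitatory neurons of cortex share across layers. The bHLH factors bind E-boxes, and the 250 bases before the start site of each gene are shown because both genes varied with *Tbr1* and *Bcl11b* between embryos, as described below. The windows are from RefSeq on GRCm38.p6, chr11:98329646-98329895 and chr6:55681264-55681513, both on the minus strand, read 5′ to 3′, with matches to the E-box letters CAGNTG on either strand in capitals.
Neurod2: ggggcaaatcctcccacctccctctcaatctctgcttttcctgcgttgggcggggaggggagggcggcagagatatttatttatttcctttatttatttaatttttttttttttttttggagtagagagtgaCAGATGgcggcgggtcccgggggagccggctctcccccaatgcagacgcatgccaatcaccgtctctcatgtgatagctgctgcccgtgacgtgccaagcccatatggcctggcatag
Neurod6: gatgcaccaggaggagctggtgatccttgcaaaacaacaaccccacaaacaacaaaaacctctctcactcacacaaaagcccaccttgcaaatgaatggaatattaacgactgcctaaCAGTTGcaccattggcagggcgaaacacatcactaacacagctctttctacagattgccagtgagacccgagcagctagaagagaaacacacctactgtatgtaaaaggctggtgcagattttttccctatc
Each window held 1 match to CAGNTG, while 44.8% of all 32841 promoter windows of that length held at least 1. Among the 9 member windows 3 held a match, the other being that of *Tbr1*. Other forms of the E-box were not searched. The core letters AANATGGC of YY1, a factor that binds the INO80 complex, were in 3.91% of all windows and in 1 member window, the downstream one of 2 for *Tle4*. The T-box letters AGGTGTGA were in 1.12% of all windows and in 0 of the 9. The letters were searched on both strands, no 2 matches overlapped in the windows shown, and a match describes the letters only. The windows of *Cux1* and *Tbr1* lay wholly in annotated exons and are not printed. *Foxp2* had no window in the table.

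*Neurod2* ran from 86.1 to 172 CPM in ctrl with a median of 122, was 136, 155, 143, 145 and 123 CPM in cKO-E, and ran from 93.5 to 170.3 CPM in dKO-E with a median of 125. *Neurod6* ran from 114 to 202 CPM in ctrl with a median of 150.5, was 125, 152, 144, 142 and 154 CPM in cKO-E, and ran from 94.3 to 155 CPM in dKO-E with a median of 134. Both overlapped between all groups and neither passed a test in the comparisons as reported. For *Neurod2* the 95% intervals were -0.19 to 0.37 in cKO-E and -0.34 to 0.23 in dKO-E. For *Neurod6* they were -0.35 to 0.13 and -0.58 to -0.03, and the dKO-E estimate was -0.31 (adjusted p = 0.122 in edgeR's quasi-likelihood test). It was -0.40 (adjusted p = 0.0397) without the litter 7 embryos and -0.42 (adjusted p = 0.0149) with sex as a covariate. In batch 1 alone it was -0.51 (adjusted p = 0.0354) and in batch 2 alone -0.040 (adjusted p = 0.916). In cKO-E the *Neurod6* estimate of -0.11 became -0.31 (adjusted p = 0.0482) in batch 1 alone and -0.30 (adjusted p = 0.00710) with the library letter as a block, and 0.25 (adjusted p = 0.234) in batch 2 alone. In dKO-E A the paralogs parted, with the highest *Neurod2* level of its group, 170.3 CPM, and the second lowest *Neurod6* level, 95.8 CPM.

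**Figure D3:**
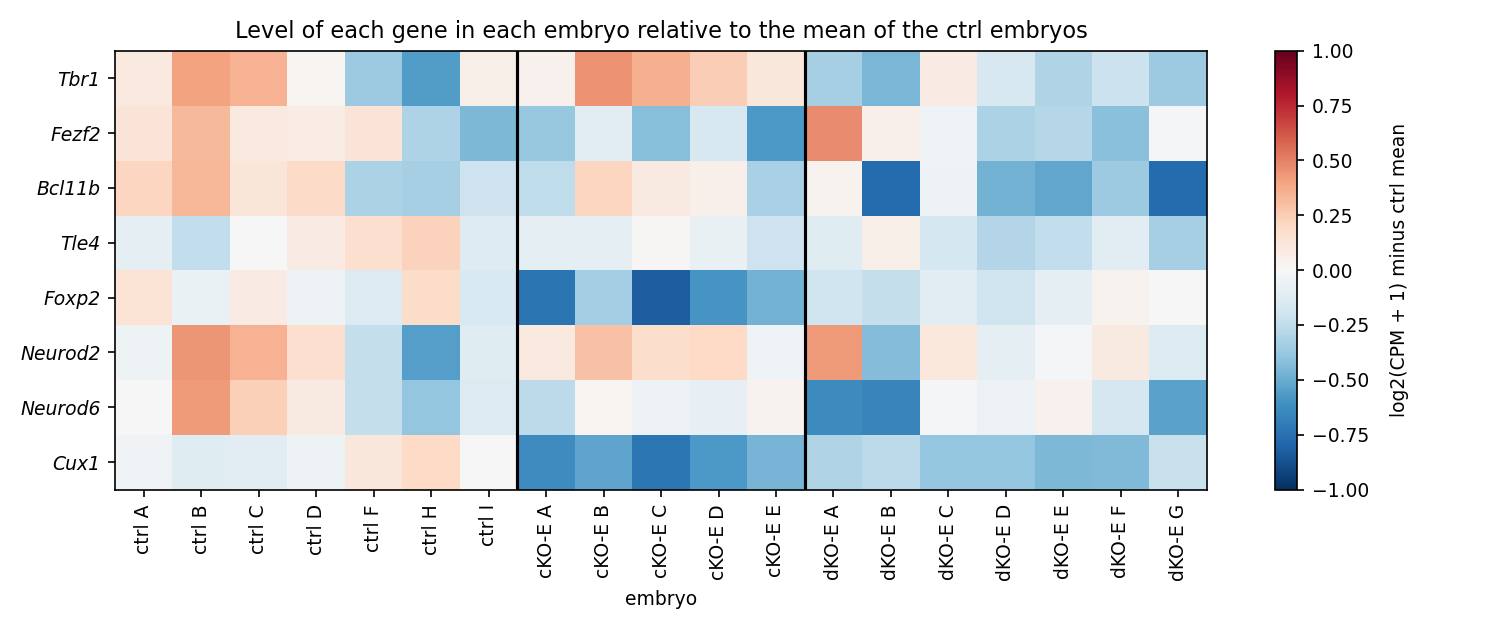
Each of the 8 measured genes (rows) in each of the 19 embryos (columns, grouped by genotype), as log2(CPM + 1) minus the mean of the 7 ctrl embryos; blue is lower and red higher. *Cux1* was blue in all 12 mutant embryos and *Foxp2* in the 5 cKO-E embryos, while ctrl H was low in *Tbr1*, *Bcl11b*, *Neurod2* and *Neurod6* together.

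Between embryos of the same genotype the members did not vary independently. After group means were subtracted from log2(CPM + 1), *Tbr1*, *Bcl11b*, *Neurod2* and *Neurod6* had Pearson correlations of 0.48 to 0.84 with one another over the 19 libraries. *Cux1* ran opposite to them, with -0.73 to *Tbr1*, -0.71 to *Neurod6*, -0.65 to *Neurod2* and -0.55 to *Bcl11b*. *Tle4* had -0.56 with *Tbr1* and -0.57 with *Neurod6*. *Foxp2* was between -0.10 and 0.30 with every other member. These values describe 19 libraries that share litters, batches and a common scale, and carry no test.

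The summed level of the pan-neuronal genes moved the same way. It was 5331 to 7858 CPM in ctrl, 6659 to 8262 in cKO-E and 4690 to 6177 in dKO-E. Its correlation over the 19 libraries, after group means, was 0.87 with *Tbr1*, 0.87 with *Bcl11b*, 0.87 with *Neurod2* and 0.76 with *Neurod6*, and -0.81 with *Cux1*, -0.40 with *Tle4* and -0.08 with *Foxp2*. Ctrl H was lowest of its group in *Tbr1*, *Bcl11b*, *Neurod2* and *Neurod6* and highest in *Cux1*, *Tle4* and *Foxp2*. Ctrl B was highest in the former 4 and lowest in *Cux1* and *Tle4*. The ctrl levels also split by sequencing batch. The summed level was 6906 to 7858 CPM in ctrl embryos of batch 1 and 5331 to 6040 in those of batch 2. *Bcl11b* was at 713 to 826.5 and 520.1 to 567.6 CPM there, and *Cux1* at 644.2 to 685 and 700.2 to 806.4 CPM. In both mutants the summed level overlapped between these batches. The part of batch in the correlations was not tested. When libraries were scaled to pan-neuronal genes, the median of all genes moved to -0.14 in cKO-E and, for dKO-E against cKO-E, to 0.44. On that scale *Tbr1* in dKO-E was 0.07 below cKO-E (adjusted p = 0.516 in edgeR's quasi-likelihood test), *Cux1* remained lower in cKO-E (-0.77, adjusted p = 0.000899) and its dKO-E estimate was -0.11 (adjusted p = 0.479). The part of neuron content in these levels was not tested otherwise.

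**Figure D4:**
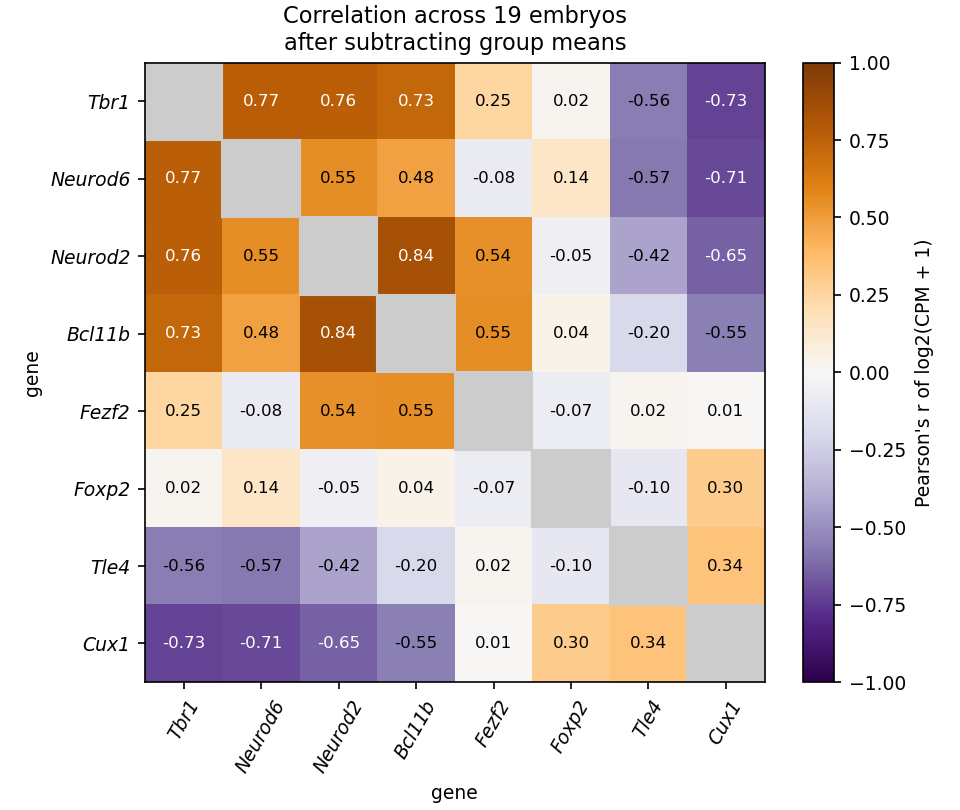
Pearson's correlation of log2(CPM + 1) between each pair of the 8 genes over 19 embryos, after subtracting the mean of each genotype. *Tbr1*, *Neurod6*, *Neurod2* and *Bcl11b* formed a block of positive values from 0.48 to 0.84, and *Cux1* was at -0.55 to -0.73 with each of them.

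Among all 12047 genes compared, the gene whose log2(CPM + 1) followed *Cux1* most closely over the 19 libraries was *Tlk1* (r = 0.96), a kinase of chromatin assembly. *Bcl11b* was closest to *Fmnl2* (r = 0.97), a formin. *Tbr1* was closest to *Elmod1* and *Neurod2* to *Nuak1*, a kinase of axon branching, both at r = 0.93. *Foxp2* was closest to *Hmgn3* (r = 0.90), a nucleosome-binding protein, *Neurod6* to *Fgf13* (r = 0.89), *Fezf2* to *Bsg* (r = 0.88) and *Tle4* to *Canx* (r = 0.83), a chaperone of the endoplasmic reticulum. The correlation of *Cux1* and *Tlk1* was 0.75 after group means, and that of *Bcl11b* and *Fmnl2* 0.95.

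Of 26 other transcription factors of projection neurons, 25 were tested in cKO-E against ctrl, where 4 rose and 6 fell (median -0.01, all genes 0.02). Of all genes 7.31% rose and 9.88% fell there. The lowest was *Nr4a2*, a nuclear receptor of subplate and claustral neurons, with -0.96 (SE 0.14, adjusted p = 0.000201 in edgeR's quasi-likelihood test) and means of 42.0 CPM in ctrl and 20.9 in cKO-E. *Lhx2*, a LIM factor of cortical progenitors, fell by 0.66 (SE 0.09), *Foxp1*, the paralog of *Foxp2*, by 0.36 (SE 0.07), and the nuclear factor I genes *Nfia* and *Nfib* by 0.30 each (SE 0.06). *Rorb*, a layer 4 nuclear receptor, rose by 0.75 (SE 0.11), from a mean of 71.3 to 122 CPM. All 6 of these genes had groups that did not overlap.

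In dKO-E against ctrl 9 of 24 fell (median -0.23, all genes 0.01), where 10% of all genes fell. The calls of *Sox5*, *Bcl11a* and *Lmo3* were each lost without any 1 of several libraries (highest adjusted p 0.102, 0.0709 and 0.0620 in edgeR's quasi-likelihood test). *Mef2c*, a neuronal MADS factor, fell by 0.64 (SE 0.11), *Bhlhe22* by 0.49 (SE 0.12), *Zfpm2* by 0.43 (SE 0.07) and *Sox4* by 0.36 (SE 0.10), and *Nfia* and *Nfib* fell by 0.28 (SE 0.05) and 0.30 (SE 0.05). In dKO-E against cKO-E 3 of 25 were higher and 8 lower (median -0.16, all genes 0.02). Of all genes 5.59% were higher and 9.42% lower there. *Nr4a2* was 1.21 higher (SE 0.17, adjusted p = 5.53e-05 in edgeR's quasi-likelihood test) and *Foxp1* 0.41 higher (SE 0.07). *Mef2c* was 1.08 lower (SE 0.12), *Bhlhe22* 0.79 (SE 0.13), *Myt1l* 0.67 (SE 0.12) and *Zfpm2* 0.64 lower (SE 0.07). The upper-layer factor *Cux2*, the paralog of *Cux1*, passed no test, with 0.31 (SE 0.14, adjusted p = 0.165) in cKO-E and 0.18 (SE 0.14, adjusted p = 0.413) in dKO-E. It was singled out after its values were seen.

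Progenitor and neurogenic regulators act before the members in the lineage. Where 9.88% of all genes fell in cKO-E, 6 of 14 of these regulators fell (median -0.33). They were *Neurog2* (-0.39, SE 0.09), the proneural activator of *Neurod* genes, *Emx2* (-0.62, SE 0.15), *Hes1* (-0.50, SE 0.14), *Pax6* (-0.35, SE 0.10), *Emx1* (-0.34, SE 0.09) and *Eomes* (-0.32, SE 0.09), the marker of intermediate progenitors. In dKO-E 1 of 14 fell, *Emx2* (-0.45, SE 0.14), with a median of -0.03, where 10% of all genes fell. When 1 library was left out, the cKO-E call was lost for *Hes1* without cKO-E C (highest adjusted p 0.0617 in edgeR's quasi-likelihood test) and for *Pax6* (0.0729) and *Eomes* (0.0599) without cKO-E A or C, and the dKO-E call of *Emx2* was lost without any 1 of ctrl C, F, H or I or of dKO-E A, C, D, E, F or G (0.0781). The summed level of the list was 887 to 972 CPM in ctrl, 658 to 877 in cKO-E and 739 to 1024 in dKO-E, so that cKO-E lay below ctrl and dKO-E spread around it.

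Of the pan-neuronal genes, 5 of 19 rose and 1 fell in cKO-E (median 0.27), where 7.31% of all genes rose and 9.88% fell. In dKO-E 6 of 18 fell (median -0.27, all genes 10%), and 14 of 18 were lower in dKO-E than cKO-E (median -0.52, all genes 9.42%). The cKO-E calls of *Gap43* and *Syt1*, which rose, and *Elavl4*, which fell, were lost without any 1 of several libraries (highest adjusted p 0.119, 0.116 and 0.0993 in edgeR's quasi-likelihood test). *Stmn2* and *Mapt*, which act on microtubules, rose by 0.49 (SE 0.10) and 0.69 (SE 0.17) in cKO-E, and *Map2* fell by 0.38 (SE 0.07) in dKO-E. Of the deep-layer neuron genes that are not transcription factors, 4 of 14 rose and 2 fell in cKO-E (median 0.09). The shares over all genes were 7.31% and 9.88%. In dKO-E 4 of 13 fell (median -0.17), where 10% of all genes fell. The netrin receptor gene *Unc5c* rose by 1.21 (SE 0.20) in cKO-E, while *Rprm*, a layer 6 gene that p53 can induce, fell by 0.65 (SE 0.11) there and by 0.54 (SE 0.11) in dKO-E.

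**Figure D5:**
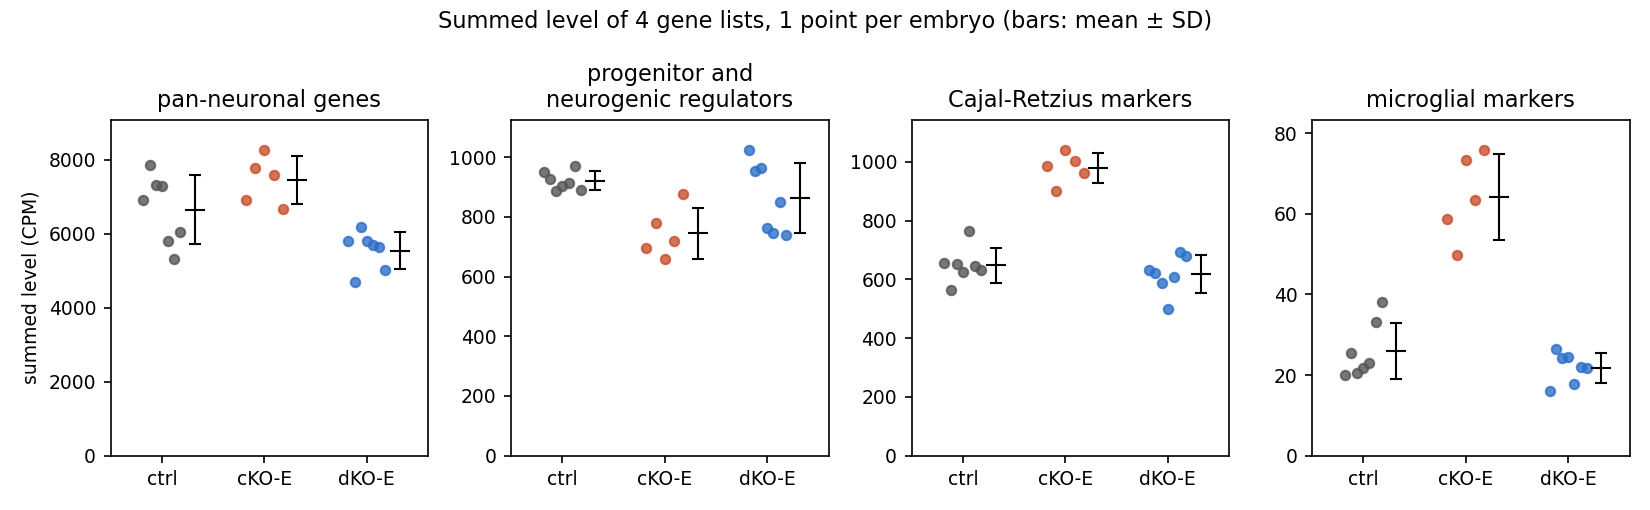
Summed level in CPM (vertical axis, from 0) of 4 gene lists by genotype, with 1 point per embryo and the group mean ± SD as the bar. Cajal-Retzius and microglial markers were higher in the 5 cKO-E embryos than in all other embryos, progenitor regulators were lower in them than in ctrl, and pan-neuronal genes in dKO-E lay below all cKO-E embryos.

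Markers of other cell types moved with cKO-E beside the members. All 5 tested microglial markers of 14 listed rose (median 1.53), among them *Csf1r* by 2.14 (SE 0.33), and their summed level was 19.99 to 38.1 CPM in ctrl, 49.9 to 75.8 in cKO-E and 16.1 to 26.4 in dKO-E. The microglial *Aif1* and *Tyrobp* had 4 and 11 counts over all libraries. Of the Cajal-Retzius markers, of early-born marginal zone neurons that also express *Tbr1*, 4 of 6 rose in cKO-E (median 0.77), with *Reln* up by 0.62 (SE 0.07), and 5 of 7 were lower in dKO-E than cKO-E, including *Reln* by 0.70 (SE 0.08). Their summed level was 564 to 765 CPM in ctrl, 901 to 1040 in cKO-E and 498 to 692 in dKO-E. Of the interneuron lineage markers 3 of 10 rose and 1 fell in cKO-E, and 7 of 10 were lower in dKO-E than cKO-E. The summed interneuron level was 203 to 825 CPM in ctrl, 658 to 1170 in cKO-E and 336 to 641 in dKO-E, and *Nkx2-1* had 4 counts over all libraries. The part of these cells in the levels of the members was not tested.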

How the data were processed

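Total RNA of E13.5 cortex was depleted of ribosomal RNA and made into libraries by Click-seq with molecular identifiers. Per the labels and the study's methods, the authors processed reads with bcl2fastq 2.17 and cutadapt 1.13, aligned them with STAR 2.5.2a to mm10, removed duplicates with UMI-tools 0.5.3 and counted them with HTSeq 0.6.1p1; the deposited values are whole-number counts per gene without normalization. The annotation release and the strand setting are not given in the sources used here. Reads not assigned to a gene were left out: 4.96% to 12.5% outside exons, 1.78% to 2.07% ambiguous and 14.9% to 20.9% not unique. Identifiers were named by GENCODE M21 (51719 of 51912 matched).

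Genes passed edgeR's filterByExpr (minimum count 10), libraries were scaled by TMM factors, and each comparison had its own fit by edgeR 4.0.16's quasi-likelihood test in R 4.3.3, with Benjamini-Hochberg adjustment over all genes tested. CPM used TMM factors over all 19 libraries. The SE is the fold change divided by the square root of the F statistic. Scripts were tested on simulated data. DESeq2 1.42.0, other scalings, covariates, blocks and left-out libraries were alternatives. The members and gene lists were chosen with earlier results of these data known. Genes named beside the members and *Ino80* and *Trp53* were, per list and comparison, at most 6 called genes of smallest p, and for each member the gene of highest correlation. *Cux2*, *Ikzf1*, *Sp9*, *Sox5*, *Bcl11a*, *Lmo3*, genes at or near 0 counts and genes sharing exons with *Neurod1* were named after their values were seen. List genes were refitted without each library in turn, chosen after seeing the data. P-values measure spread between embryos, some of which are littermates. Python 3.11.15, numpy 2.4.6 and matplotlib 3.10.9 drew plots.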

Additional observations from a re-analysis of the deposited data

Results flagged for a closer look

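The effect of the mutation differed between dKO-E and cKO-E, by edgeR's quasi-likelihood test of the difference itself, for *Tbr1* (-0.48 on the log2 scale, dKO-E minus cKO-E), *Foxp2* (0.47) and *Cux1* (0.23). All 7 dKO-E embryos were above every cKO-E embryo in *Foxp2* and *Cux1*, and 6 of 7 were below every cKO-E embryo in *Tbr1*. The mutants shared no litter, so litter and genotype cannot be told apart in this difference. Their sex ratios differed as well, and with sex as a covariate *Tbr1* was at -0.58, *Foxp2* at 0.47 and *Cux1* at 0.30 (adjusted p = 0.000185, 0.00105 and 0.00214 in edgeR's quasi-likelihood test). Of the 24 groups of 5 or 7 libraries examined for a single extreme embryo, 0 had one by Dixon's criterion, where chance gives about 1 in 20.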

How the results depend on the processing

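Over the settings run, 8 members in 3 comparisons gave 776 values, of which 676 kept their direction and side of the threshold, 50 lost a call, 19 gained one and 31 changed sign; the causes were not tested. *Foxp2* and *Cux1* fell in cKO-E in every setting but males alone, which leaves 1 cKO-E male and 0 members lower (*Cux1* at -0.68, adjusted p = 0.0699 in edgeR's quasi-likelihood test). Members lower in cKO-E, 3 as reported, were 4 with *Neurod6* added in batch 1 alone or with the letter as a block, and 2, without *Fezf2*, with total counts, upper quartile factors, litter as a block, 1 fit over all libraries, batch 2 or females alone or a rate of 0.001. Members lower in dKO-E, 2 as reported, were 0 with pan-neuronal scaling, litter as a block or females alone, 1 with total counts, batch 2 alone, libraries of at least 2000000 counts or a rate of 0.001, 4 with sex as a covariate, batch 1 alone or without litter 7 (chosen after seeing the data), and 1 to 3 when 1 library was left out. Members higher in dKO-E against cKO-E, 2 as reported, were 5 with pan-neuronal scaling, 1 in batch 2, females, males, libraries of at least 2000000 counts or at a rate of 0.001, and 1 to 2 without 1 library. Members lower there, 1 as reported, were 0 with pan-neuronal scaling, in batch 2 or at 0.001, 2 with every counted gene kept, sex as a covariate, females alone or without litter 7, and 1 to 2 without 1 library. Litter could not be fitted for dKO-E against cKO-E, which shared none.

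By the litter labels, same-letter embryos were littermates only for A and B of dKO-E and ctrl. Correlations of same-letter deviations ran from -0.37 to 0.14. The littermates A and B had 0.10 and -0.37, so these values cannot show whether letters pair embryos. With the letter as a replicate block 1 member was lower in dKO-E (*Cux1*), 1 higher against cKO-E (*Foxp2*), and uncalled members changed sign in cKO-E, *Tle4* to 0.014 and *Neurod2* to -0.047.

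The other sign changes were among members that were not called in the comparisons as reported. With pan-neuronal scaling *Neurod2* was at -0.037 in cKO-E, *Fezf2*, *Tle4*, *Foxp2* and *Neurod2* at 0.20, 0.071, 0.13 and 0.24 in dKO-E, and *Bcl11b*, *Tle4*, *Neurod2* and *Neurod6* at 0.068, 0.36, 0.28 and 0.21 against cKO-E. On that scale *Tle4* and *Neurod2* passed the test against cKO-E (adjusted p = 0.00512 and 0.0220 in edgeR's quasi-likelihood test), where 7332 of the 11746 genes tested were higher. With total counts *Neurod2* was at 0.043 in dKO-E, where the median of all genes moved to 0.10. With litter as a block *Bcl11b* and *Neurod6* were at 0.050 and 0.033 in cKO-E and *Tle4* at 0.082 in dKO-E. In batch 1 *Neurod2* was at -0.063 in cKO-E, and in batch 2 *Bcl11b* and *Neurod6* were at 0.15 and 0.25 in cKO-E and *Foxp2* and *Neurod2* at 0.045 and 0.31 in dKO-E. In males *Tle4* and *Neurod2* were at 0.093 and -0.047 in cKO-E and *Foxp2* at 0.016 in dKO-E, and in females *Fezf2* and *Neurod2* were at 0.22 and 0.086 in dKO-E and *Tle4* at 0.10 against cKO-E. Without 1 library *Bcl11b* in cKO-E ran from -0.13 to 0.0069 and *Neurod2* in dKO-E from -0.13 to 0.0295.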

Other observations

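Other lists hold few tested genes. Of the choroid plexus and hem markers both tested genes rose in cKO-E, *Rspo3* by 0.78 (SE 0.16) and *Lmx1a* by 2.15 (SE 0.56), and the summed level of the list was 25.3 to 51.0 CPM in ctrl, 58.4 to 124 in cKO-E and 20.7 to 50.03 in dKO-E. The top of that range was cKO-E E of litter 7, with 88.1 CPM the next highest cKO-E sum, and the same embryo had 22.4 CPM of *Lmx1a* against 1.84 to 6.97 in the other cKO-E embryos. Without it *Lmx1a* was at 1.22 and no longer called (adjusted p = 0.0885 in edgeR's quasi-likelihood test), it did not pass the filter on low counts without ctrl F, and *Rspo3* was at 0.65 (adjusted p = 0.0126). Endothelial markers passed no test in 6 genes per comparison, with summed levels of 43.7 to 84.2 CPM in ctrl, 53.7 to 75.4 in cKO-E and 43.2 to 96.3 in dKO-E. Blood markers passed no test in 3 or 4 genes, with summed levels of 47.2 to 129 CPM, 58.8 to 88.0 and 34.3 to 118. Of the 2 tested thalamic markers *Tcf7l2* fell by 0.45 (SE 0.09) in cKO-E, and the summed level of that list was 134 to 192 CPM, 113 to 153 and 111 to 213. *Gbx2*, a defining thalamic gene, was listed at 0 in every library, and *Ttr*, the leading gene of choroid plexus, had 2 counts in all.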
